A study of Mus musculus with 38 samples.

Results

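Propiconazole and phenobarbital both enlarge the rodent liver and induce its drug-metabolising enzymes, and the liver transcript levels after 30 days of dietary exposure were compared here as the change under propiconazole minus the change under phenobarbital. Of the 38 arrays of the series, 16 belong to this comparison, chosen by their labels alone. All arrays hold liver RNA of male mice of the outbred CD-1 strain, whose age is labelled as 6 to 8 weeks. The groups were 3 mice on propiconazole feed (2500 ppm, a mean daily intake of 349.6 ± 46.7 mg/kg), 3 mice on the control feed of that conazole experiment, 5 mice on phenobarbital feed (850 ppm, 97.2 ± 5.9 mg/kg daily) and 5 mice on the control feed of the phenobarbital experiment. The replicates are labelled as biological. The doses were not matched, and each compound had its own experiment, so that compound and experiment cannot be told apart between the treated groups; each compound was therefore set only against its own controls. The study asked, by its title, whether tumour-inducing triazoles can be told from phenobarbital by liver transcripts.

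Phenobarbital is the classical indirect activator of the constitutive androstane receptor CAR, encoded by Nr1i3, a nuclear receptor of hepatocytes that pairs with the retinoid X receptor and switches on P450, transferase and transporter genes. Propiconazole is a triazole fungicide that blocks the fungal lanosterol demethylase CYP51, and conazoles also activate CAR and the related pregnane X receptor in rodent liver. The levels of many liver transcripts in mice also differ between the sexes, because growth hormone is secreted in pulses in males and more continuously in females.

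Transcripts were measured on Affymetrix 430_2 arrays, and all levels below are on a scale of log2(intensity + 16), on which 4.00 is the lowest possible value. A level above 5.99, the 95th percentile of 24 olfactory receptor genes taken as not used by liver, is called above background. A gene was called where limma's moderated test gave a Benjamini-Hochberg adjusted p under 0.05 over the 17481 genes tested. Of the 21 olfactory receptor genes tested, 1 had a called higher difference (against 2.44% of all genes). Propiconazole raised 2 of them (against 8.08%) and lowered 1 (against 9.42%). All 13 hepatocyte markers measured were above background in each group, which fits the labelled tissue. The conazole arrays correlated with the others of their group at 0.954 to 0.965 and the phenobarbital arrays at 0.979 to 0.984, and the median within-group SD was 0.22 and 0.14. A second adjusted p, from a fit that gives each experiment its own spread, is therefore printed beside the first, as the p with separate spreads, for the genes described by array and wherever it ended a call. Where arrays of a group lie below background, the fitted log2 change and difference depend on the floor and the offset, and a fold is then printed as a bound where no array of a group is above background, and otherwise with the number of arrays that are.

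More genes were called under propiconazole than under phenobarbital. In the common fit, which has 1 spread for both experiments, the propiconazole change alone was called for most of the genes that separated the compounds. Propiconazole raised 1413 genes (8.08% of those tested) and lowered 1647 (9.42%) against its controls, 17.5% in all. Phenobarbital raised 125 (0.715%) and lowered 61 (0.349%), 1.06% in all. The difference between the 2 changes was called for 974 genes (5.57%), of which 427 (2.44%) were higher and 547 (3.13%) lower under propiconazole. Of the 427, propiconazole alone was called for 385, both compounds for 17, phenobarbital alone for 7 and neither for 18. Of the 547, propiconazole alone was called for 524, both for 7, phenobarbital alone for 8 and neither for 8. Conversely, 86 of the 125 genes raised by phenobarbital (68.8%) were raised by propiconazole too, which is 6.09% of the genes propiconazole raised, and for 69 of these 86 the difference was not called. Among the 61 genes lowered by phenobarbital, 27 (44.3%) were lowered by propiconazole, or 1.64% of its lowered genes. Called changes in opposite directions were found for Map2k2, described below, and Tlr7, whose mean was below background in all 4 groups. With separate spreads propiconazole had 1167 calls and phenobarbital 471, in place of 3060 and 186. With them 379 of the 974 differences were called, 43.5% of them higher. The split by which compound was called is given for the common fit only. Leaving out phenobarbital replicate 4 gave 281 higher and 358 lower, and leaving out propiconazole replicate 1 gave 656 higher and 769 lower. With arrays centred on their medians instead of quantile normalized, 169 genes were higher and 467 lower, so that the higher share was 26.6% in place of 43.8%.

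**Figure D1:**
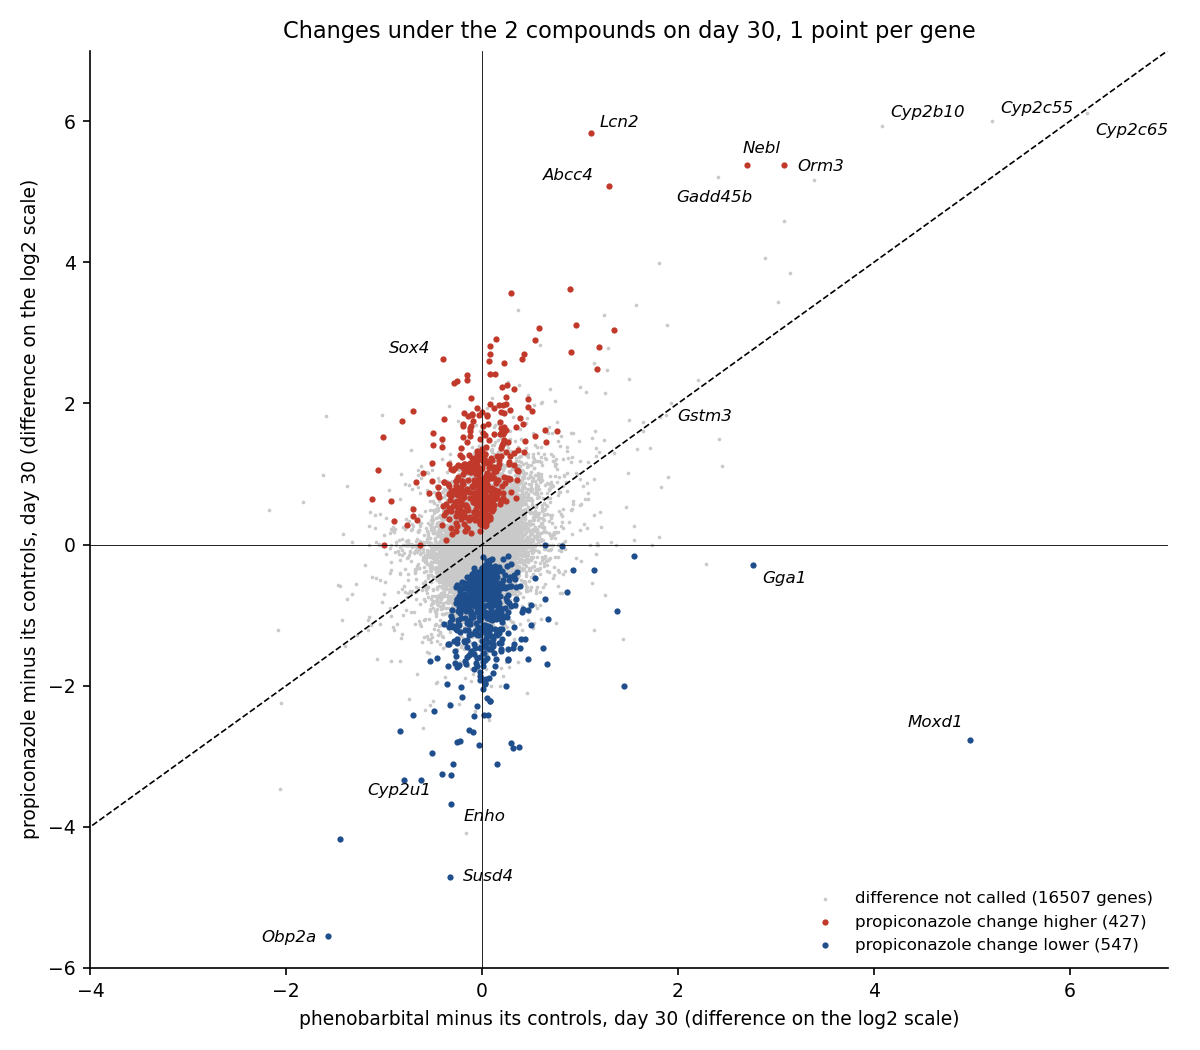
The change under propiconazole (vertical axis, log2 difference from its 3 controls) is plotted against the change under phenobarbital (horizontal axis, log2 difference from its 5 controls), with 1 point per gene and a dashed line where both are equal. The 427 genes with a called higher difference (red) and the 547 with a called lower one (blue) lie mostly near 0 on the horizontal axis, and Gstm3 lies near the dashed line. Cyp2c65 lies there too, with all its controls below background.

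Several P450 and glutathione S-transferase genes rose under both compounds. Cyp2c65, a P450 of the CYP2C subfamily, stood at 10.25, 10.65 and 9.72 in propiconazole livers, against 4.24, 4.00 and 4.00 in conazole controls. In phenobarbital livers it stood at 10.32, 10.09, 10.69, 10.36 and 10.25, against 4.11, 4.35, 4.32, 4.03 and 4.00 in phenobarbital controls. No treated array overlapped with a control array, and no control array was above background. The rise was at least 18.6-fold under propiconazole and at least 20.5-fold under phenobarbital, where each control array below background was set to the background level. The difference between the 2 rises cannot be read, because both are known only from below. Gstm3, a mu class glutathione S-transferase, stood at 13.23, 13.29 and 13.34 in propiconazole livers, against 11.57, 11.22 and 11.57 in conazole controls. It stood at 12.89, 13.03, 12.92, 12.82 and 12.90 in phenobarbital livers, against 10.92, 10.76, 11.26, 11.26 and 10.96 in phenobarbital controls. Its rise was 3.56-fold under propiconazole and 3.69-fold under phenobarbital, again without overlap, and the log2 changes differed by -0.05 ± 0.15 (interval -0.37 to 0.28; adjusted p = 0.897). For Gstm3 the interval leaves room for only a small difference relative to the size of either change.

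For other inducible P450 genes the interval of the difference was wider. Cyp2b10, the standard CAR target of mouse liver, stood at 13.03, 13.05 and 13.07 in propiconazole livers, against 6.44, 5.84 and 9.05 in conazole controls. In phenobarbital livers it stood at 12.65, 12.75, 12.65, 12.56 and 12.52, against 8.39, 8.32, 7.68, 9.15 and 9.14 in phenobarbital controls. The groups did not overlap in either experiment, and conazole control replicates 1 and 2 lay below all other arrays. The rise was 61.4-fold under propiconazole and 17-fold under phenobarbital, with 2 of the 3 conazole controls above background. The difference of 1.85 ± 0.73 (interval 0.30 to 3.40) was not called, with an adjusted p of 0.155. Cyp2c55 rose 64-fold under propiconazole and 36.9-fold under phenobarbital (difference 0.80 ± 0.41, adjusted p = 0.282), with 2 of 3 conazole controls above background. Cyp2c37 rose 10.8-fold and 8.1-fold under propiconazole and phenobarbital (0.42 ± 0.50, adjusted p = 0.692), with 4 of 5 phenobarbital controls above background. The female-biased P450 genes Cyp2b9 and Cyp2b13 rose under both compounds, with differences of 0.71 ± 0.80 and 1.18 ± 0.76 (adjusted p = 0.674 and 0.414), though no control array was above background for Cyp2b13 and only 3 of the 8 for Cyp2b9. Gadd45b, a stress-inducible gene that is an early CAR target, rose at least 9.56-fold under propiconazole. It also rose under phenobarbital (adjusted p = 0.024), where 1 of the 5 controls was above background and the other 4 were at 4.00, and its difference of 2.81 ± 0.79 missed the threshold at an adjusted p of 0.0512 (0.203 with separate spreads). Orm2, an acute phase glycoprotein gene, rose 5.06-fold and 4.62-fold under propiconazole and phenobarbital (difference 0.13 ± 0.63, adjusted p = 0.938).

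**Figure D2:**
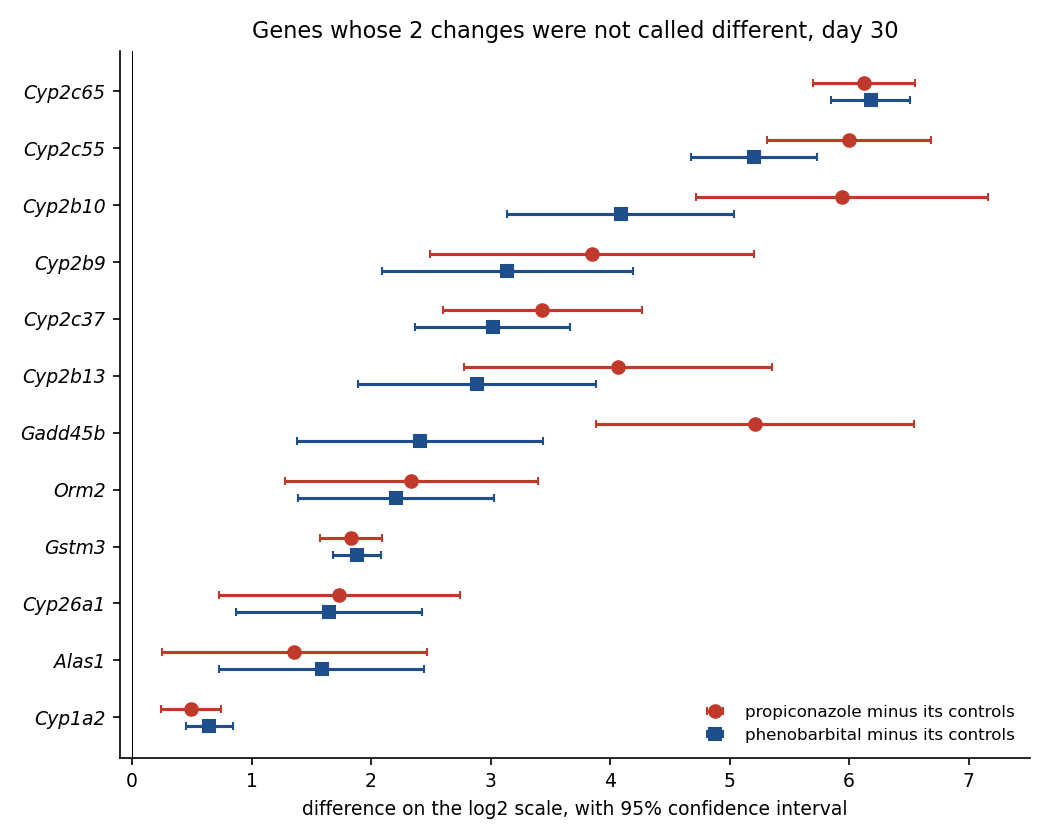
Changes of 12 genes whose difference was not called, as log2 differences from each compound's own controls with 95% intervals (horizontal axis), propiconazole as red circles above phenobarbital as blue squares. The intervals of the 2 compounds overlap in each gene except Gadd45b. Gstm3 lies at 1.83 and 1.88 and Cyp1a2 at 0.50 and 0.65, while the positions of Cyp2c65, Cyp2b13 and Gadd45b depend on controls mostly or all below background.

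Promoters are shown for Cyp2c65 and Gstm3, which rose under both compounds, and for the genes with the largest higher and the largest lower difference, Lcn2 and Moxd1, which are described next. They run 5′ to 3′ from 250 bases before to 50 bases after the RefSeq gene start on build GRCm38.p6, and capitals mark matches to any of 4 motifs searched on both strands. The motifs were TTCNNNGAA (the site form of STAT factors), TGACNNNGC (the antioxidant response element core), AGGTCA (the nuclear receptor half-site) and TATAAA (the TATA box).
Cyp2c65, chr19:39060756-39061055, plus strand: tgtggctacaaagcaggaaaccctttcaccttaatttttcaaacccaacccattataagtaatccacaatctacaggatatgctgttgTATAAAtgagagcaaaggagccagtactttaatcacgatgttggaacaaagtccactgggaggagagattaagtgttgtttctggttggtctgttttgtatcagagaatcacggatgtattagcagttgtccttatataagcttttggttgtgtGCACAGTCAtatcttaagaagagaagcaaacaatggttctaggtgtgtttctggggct
Gstm3, chr3:107969125-107969424, minus strand: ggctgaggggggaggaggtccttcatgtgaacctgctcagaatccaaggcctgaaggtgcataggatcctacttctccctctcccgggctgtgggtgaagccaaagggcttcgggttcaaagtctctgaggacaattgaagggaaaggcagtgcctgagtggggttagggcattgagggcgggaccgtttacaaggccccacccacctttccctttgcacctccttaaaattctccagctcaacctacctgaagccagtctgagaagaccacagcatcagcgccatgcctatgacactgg
Lcn2, chr2:32387690-32387989, minus strand: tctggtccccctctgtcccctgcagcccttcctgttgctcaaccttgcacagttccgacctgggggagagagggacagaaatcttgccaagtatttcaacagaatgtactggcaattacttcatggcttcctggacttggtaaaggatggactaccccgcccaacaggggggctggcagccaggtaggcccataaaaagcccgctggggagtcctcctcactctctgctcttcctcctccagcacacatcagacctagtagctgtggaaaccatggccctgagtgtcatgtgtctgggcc
Moxd1, chr10:24223267-24223566, plus strand: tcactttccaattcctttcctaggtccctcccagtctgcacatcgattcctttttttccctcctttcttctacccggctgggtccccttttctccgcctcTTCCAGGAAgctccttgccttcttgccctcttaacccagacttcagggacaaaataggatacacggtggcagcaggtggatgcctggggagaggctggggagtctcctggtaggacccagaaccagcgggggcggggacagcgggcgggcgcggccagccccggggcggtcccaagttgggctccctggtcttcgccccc
The Cyp2c65 window held 1 TATAAA match and, on the other strand, 1 TGACNNNGC match, and the Moxd1 window held 1 TTCNNNGAA match. The windows of Gstm3 and Lcn2 held none of the 4 letter strings. Among all 32851 promoters of this length, TTCNNNGAA occurred in 8.3%, TGACNNNGC in 12.4%, AGGTCA in 16.3% and TATAAA in 13.6%. Of the 12 genes with the largest higher differences 9 had a promoter in the table, of the 12 with the largest lower differences 9, and of the 8 shared genes all. TATAAA occurred in 4 of the 8 shared genes (Cyp2c55, Cyp2c65, Gadd45b and Orm2), in Cxcl9 of the higher and in Hectd4 and Obp2a of the lower genes. AGGTCA occurred in Cyp2b13 and Cyp2b9 of the shared, in Cxcl9, Nebl and Sox4 of the higher and in Obp2a and Zbtb42 of the lower genes. TTCNNNGAA and TGACNNNGC occurred in Abcc4 of the higher genes, and otherwise only as in the windows printed above.

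The largest higher difference was that of Lcn2, which encodes lipocalin 2, a secreted protein that binds bacterial iron carriers and rises in inflamed liver. Lcn2 stood at 11.37, 9.09 and 10.55 in propiconazole livers, against 5.18, 4.32 and 4.00 in conazole controls. It stood at 7.03, 6.84, 7.15, 7.27 and 7.07 in phenobarbital livers, against 6.76, 5.52, 5.81, 5.75 and 5.94 in phenobarbital controls. All propiconazole arrays were above all others, and no conazole control array was above background. The rise was at least 20.4-fold under propiconazole. The phenobarbital change of 1.12 was not called in the common fit (adjusted p = 0.193), although all 5 phenobarbital arrays lay above all their controls. The difference was 4.72 ± 0.57 (SE; adjusted p = 0.000411, and 0.00112 with separate spreads). A fit of all 38 arrays gave the same difference an adjusted p of 0.152, and a fit of 37 arrays, without the day 4 propiconazole array that stands apart, gave 0.0589. The summed intensity of 11 neutrophil markers was 4690, 5000 and 453 in propiconazole replicates 1 to 3, against 523 to 682 in conazole controls. The sum was 407 to 914 in phenobarbital livers, against 271 to 425 in phenobarbital controls. Among these markers S100a8 had a propiconazole change of 5.17 (adjusted p = 0.00771), with 2 of 3 propiconazole arrays and none of their controls above background. Its phenobarbital change of 3.39 was not called in the common fit (adjusted p = 0.116). All 5 phenobarbital arrays and none of their controls were above background for it. The difference of S100a8 between the compounds was not called (adjusted p = 0.552). The propiconazole changes of S100a9, Mpo, Ltf and Ngp were 1.03, -0.09, -0.22 and -0.16, none of them called. The markers Elane, Camp, Cxcr2, Csf3r, Mmp8 and Mmp9 were above background in none of the 4 groups. The part of neutrophils in the Lcn2 change was not tested.

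Transport genes were also among the higher ones. Abcc4, which encodes the export pump MRP4 at the blood side of hepatocytes, stood at 9.71, 8.84 and 9.22 in propiconazole livers, against 4.07, 4.00 and 4.45 in conazole controls. It stood at 7.26, 7.73, 7.14, 6.81 and 7.19 in phenobarbital livers, against 5.70, 6.11, 5.61, 6.04 and 6.18 in phenobarbital controls. It rose under both compounds, at least 9.66-fold under propiconazole and 2.46-fold under phenobarbital, without overlap in either experiment and with 3 of 5 phenobarbital controls above background. The difference was 3.79 ± 0.31 (adjusted p = 1.35e-05, and 0.000151 with separate spreads). Slco1a4, the uptake carrier OATP1A4, stood at 10.56, 10.95 and 11.17 in propiconazole livers, against 6.90, 8.15 and 8.88 in conazole controls, a 7.55-fold rise. Its levels were 8.62, 8.51, 8.21, 7.48 and 7.70 in phenobarbital livers, against 7.47, 9.08, 7.69, 7.75 and 7.79 in phenobarbital controls, which overlap. The difference of 2.77 ± 0.59 was called in the common fit (adjusted p = 0.0145) but not with separate spreads (0.0585). Abcb1a, which encodes the efflux pump P-glycoprotein, was above background in the propiconazole livers only, at least 1.4-fold up, with a difference of 1.51 ± 0.24 (adjusted p = 0.00271). Of the 14 ABC efflux transporters measured 2 were called higher and none lower, and of the 12 uptake transporters 1 was higher, where 2.44% of all genes were higher and 3.13% lower.

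Sox4, a transcription factor of progenitor cells, also rose under propiconazole, and its phenobarbital change of -0.40 was not called (adjusted p = 0.237). It stood at 7.93, 8.44 and 8.27 in propiconazole livers, against 5.78, 5.43 and 5.54 in conazole controls. Its levels were 6.09, 6.36, 5.94, 6.18 and 5.92 in phenobarbital livers, against 6.61, 6.69, 6.37, 6.22 and 6.60 in phenobarbital controls. The propiconazole arrays lay above all others, and the rise was at least 4.69-fold, with a difference of 3.03 ± 0.22 (adjusted p = 3.06e-06, and 5.62e-05 with separate spreads). The summed intensity of 11 biliary and progenitor markers, Sox4 among them, was 7560 to 7750 in propiconazole livers, against 4090 to 5290 in conazole controls, and 4730 to 5860 in phenobarbital livers, against 4200 to 5520 in phenobarbital controls. The brightest members of this sum were Krt8 and Krt18, at means of 11.79 and 11.39 in propiconazole livers, against 11.23 and 10.88 in conazole controls. Of the 10 members tested, propiconazole raised 6 (against 8.08% of all genes) and lowered 1 (against 9.42%), or 3 and 0 with separate spreads. The lowered one was Cd24a (-1.08, adjusted p = 0.0177), above background in no propiconazole array. Besides Sox4, Krt8 and Krt18, the raised members were Prom1 (3.39, adjusted p = 0.000373), Sox9 (1.61, adjusted p = 0.00157) and Epcam. The change of Epcam was 0.44 (adjusted p = 0.0286, but 0.129 with separate spreads). The differences of Prom1, Sox9 and Epcam were not called. Krt7, Krt19, Cftr and Muc1, also on the list, were above background in no group. The part of cell makeup in these results was not tested, and more cells of a type and more RNA per cell cannot be told apart in whole liver.

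Nebl, which encodes the actin-binding protein nebulette, rose under both compounds and more under propiconazole. It stood at 9.58, 10.14 and 9.67 in propiconazole livers, against 4.02, 4.92 and 4.34 in conazole controls. In phenobarbital livers it stood at 6.67, 7.48, 6.96, 7.04 and 7.16, against 4.64, 4.40, 4.23, 4.12 and 4.42 in phenobarbital controls, again with no control array above background. The rise was at least 14-fold under propiconazole and at least 2.11-fold under phenobarbital, and the log2 changes differed by 2.67 ± 0.31 (adjusted p = 0.000295; 0.101 in the fit of all 38 arrays and 0.0541 in that of 37). Of the other genes with the 12 largest higher differences, Atg16l2, a relative of the autophagy gene Atg16l1, rose at least 3.36-fold (difference 3.27 ± 0.29, adjusted p = 2.47e-05). Ano6, which encodes a lipid scramblase of the cell membrane, rose at least 2.47-fold (2.62 ± 0.34, adjusted p = 0.000727). Elapor1, a regulator of lysosomes and autophagy, rose at least 4.31-fold (2.57 ± 0.35, adjusted p = 0.00103), and Sult2a2, a hydroxysteroid sulfotransferase gene measured above background in 2 propiconazole arrays only, at least 1.97-fold (2.73 ± 0.55, adjusted p = 0.0113). The calls of Cxcl9, an interferon-induced chemokine gene, Vnn1, the pantetheinase gene, and Pkmyt1, a kinase gene of the cell cycle, were lost with separate spreads, at adjusted p of 0.0646, 0.0636 and 0.0528. Their differences were 2.72, 2.61 and 2.57, and that of Cxcl9 was also not called without propiconazole replicate 3 (adjusted p = 0.0508).

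**Figure D3:**
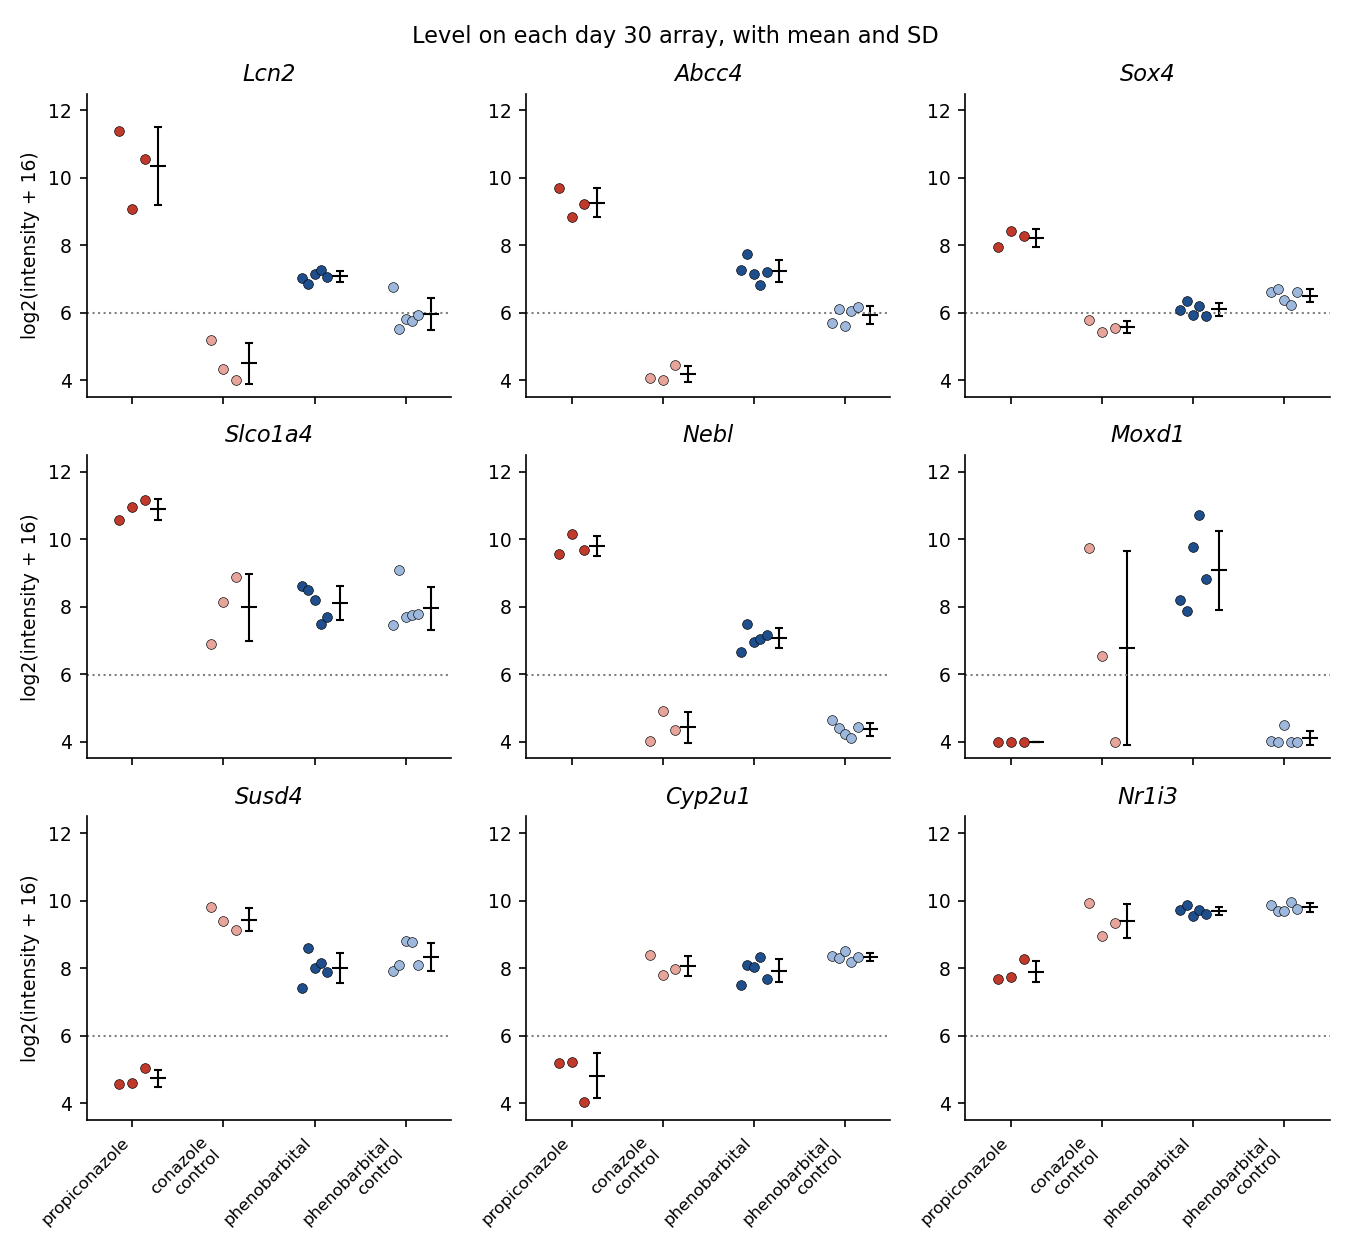
Levels of 9 genes on each of the 16 arrays (vertical axis, log2(intensity + 16)), by group from propiconazole to phenobarbital control, with the mean and SD beside the points and the background of 5.99 as a dotted line. The propiconazole arrays are the highest in Lcn2, Abcc4, Sox4, Slco1a4 and Nebl and the lowest in Susd4, Cyp2u1 and Nr1i3, while in Moxd1 the phenobarbital arrays rose and the conazole controls spread from 4.00 to 9.74.

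The largest lower differences were led by Moxd1, where phenobarbital, not propiconazole, gave the called change. Moxd1 encodes a monooxygenase related to dopamine beta-hydroxylase and is expressed more in male than in female mouse liver. It stood at 4.00, 4.00 and 4.00 in propiconazole livers, the lowest possible value, against 9.74, 6.55 and 4.00 in conazole controls. It stood at 8.21, 7.88, 9.77, 10.73 and 8.82 in phenobarbital livers, against 4.01, 4.00, 4.48, 4.00 and 4.00 in phenobarbital controls. The phenobarbital arrays were all above their controls, at least 8.55-fold on average, whereas the 3 conazole controls ranged from 4.00 to 9.74 and 1 of them equalled the propiconazole arrays. The phenobarbital change of 4.98 had an adjusted p of 0.00413, and the propiconazole change of -2.76 was not called (adjusted p = 0.0706). The difference was -7.75 ± 1.26 (adjusted p = 0.00329, and 0.00886 with separate spreads), between -9.13 and -6.26 when single arrays were left out. A similar case was Gga1, which encodes a cargo adaptor of the Golgi. It was above background in all 5 phenobarbital arrays, in 1 of their 5 controls and in no array of the conazole experiment. It rose under phenobarbital (adjusted p = 0.00125) and had a difference of -3.06 ± 0.62 (adjusted p = 0.0114, but 0.0801 with separate spreads). With the conazole controls below background, a fall of Gga1 under propiconazole could not be seen. The other probe set of Gga1 moved the opposite way.

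Susd4 and Cyp2u1 fell under propiconazole, and their phenobarbital changes were not called. Susd4, which encodes an inhibitor of complement, stood at 4.57, 4.60 and 5.03 in propiconazole livers, against 9.80, 9.40 and 9.12 in conazole controls. Its levels were 7.40, 8.60, 8.00, 8.15 and 7.88 in phenobarbital livers, against 7.93, 8.08, 8.80, 8.77 and 8.10 in phenobarbital controls. No propiconazole array was above background, so that the fall was at least 11-fold, and the phenobarbital groups overlapped. The difference was -4.38 ± 0.37 (adjusted p = 1.35e-05, and 0.000402 with separate spreads). Cyp2u1, a P450 that hydroxylates long-chain fatty acids, stood at 5.18, 5.21 and 4.04 in propiconazole livers, against 8.41, 7.81 and 7.99 in conazole controls. It stood at 7.51, 8.08, 8.05, 8.34 and 7.67 in phenobarbital livers, against 8.36, 8.29, 8.51, 8.18 and 8.34 in phenobarbital controls. The fall under propiconazole was at least 4.24-fold. Of the phenobarbital arrays 4 of 5 lay below all their controls, at a change of -0.41 (adjusted p = 0.566), and the difference was -2.85 ± 0.35 (adjusted p = 0.000411, and 0.00139 with separate spreads).

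Further genes with large lower differences fell below background under propiconazole. Aldh16a1, of the aldehyde dehydrogenase family, fell at least 5.23-fold (difference -3.11 ± 0.30, adjusted p = 5.07e-05), and Zbtb42, a zinc finger transcription factor gene, at least 2.19-fold (-3.27 ± 0.33, adjusted p = 8.71e-05). Lman2l, a lectin of the early secretory pathway, fell at least 2.71-fold (-3.21 ± 0.43, adjusted p = 0.00093), and Pla1a, a phosphatidylserine phospholipase gene, at least 4.09-fold (-2.95 ± 0.65, adjusted p = 0.0178). Enho, which encodes the secreted peptide adropin, stood at 6.17, 5.22 and 5.27 in propiconazole livers, against 9.70, 9.56 and 8.45 in conazole controls, a fall to below background in 2 of 3 arrays (adjusted p = 1.47e-05). Its phenobarbital change of -0.31 was not called, and the difference was -3.37 ± 0.47 (adjusted p = 0.00117, and 0.00748 with separate spreads). Obp2a, a male-biased lipocalin gene, had a difference of -3.98 ± 0.95 (adjusted p = 0.0248) that was not called with separate spreads (0.111) or without conazole control replicate 1 (0.0569). Hectd4, a ubiquitin ligase gene, had a difference of -3.24 ± 0.60 (adjusted p = 0.00692; 0.0634 in the fit of all 38 arrays). That of Sh3bp5l was -3.46 ± 0.91 (adjusted p = 0.0388; 0.182 with separate spreads), and it was lost in 13 of the 16 fits that leave out an array (highest adjusted p 0.084, without propiconazole replicate 3).

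A gene with small but opposite called changes was Map2k2, the kinase MEK2 of the MAP kinase cascade. It stood at 9.43, 9.28 and 9.18 in propiconazole livers, against 9.71, 9.73 and 9.74 in conazole controls. Its levels were 9.98, 10.07, 10.03, 10.13 and 10.03 in phenobarbital livers, against 9.77, 9.89, 9.86, 9.82 and 9.74 in phenobarbital controls. Propiconazole gave a change of -0.43 (adjusted p = 0.000409) and phenobarbital one of 0.23 (adjusted p = 0.0402), and the difference was -0.66 ± 0.08 (adjusted p = 0.000495, and 0.00276 with separate spreads).

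Among nuclear receptor genes the called differences were lower ones. Nr1i3, the CAR gene, stood at 7.69, 7.73 and 8.26 in propiconazole livers, against 9.94, 8.95 and 9.33 in conazole controls. It stood at 9.72, 9.88, 9.55, 9.71 and 9.61 in phenobarbital livers, against 9.89, 9.70, 9.69, 9.97 and 9.76 in phenobarbital controls. All propiconazole arrays lay below all others, a 2.85-fold fall, and the phenobarbital groups overlapped. The difference was -1.40 ± 0.25 (adjusted p = 0.00523, 0.00956 with separate spreads and 0.378 in the fit of all 38 arrays). Of the 28 nuclear receptor and coregulator genes measured, 5 were called lower (against 3.13% of all genes) and none higher (against 2.44%), 4 of the 5 also with separate spreads, and the median difference was -0.15, against 0.00 over all genes. The others were Ppara, the fatty acid receptor gene (-0.75 ± 0.19), the orphan receptor gene Nr2f6 (-0.75 ± 0.13), Nr1h3, the oxysterol receptor gene (-0.60 ± 0.11), and Rxra, the common partner of these receptors (-0.60 ± 0.10), which is named beyond the naming rule because it completes the 5. Their adjusted p were 0.0298, 0.00494, 0.00657 and 0.003. With separate spreads that of Ppara was 0.096, and its call was lost in 5 leave-outs (highest adjusted p 0.0624, without conazole control replicate 1). For Nr2f6 1 of 2 probe sets, for Rxra 2 of 3 and for Ppara 3 of 3 had the sign of the printed difference. Nr1i2, the pregnane X receptor gene, had a difference of -0.05 ± 0.42 (interval -0.94 to 0.84).

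Among the gene lists, the share of members with a lower difference was largest for male-biased liver genes. Of 19 measured, 7 were lower and none higher, against 3.13% lower among all genes, and the median difference was -0.70. The 7 were Moxd1, Susd4, Cyp2u1, Scara5, Elovl3, Cyp7b1 and Nudt7, of which 5 stayed called with separate spreads. Scara5, a ferritin receptor gene, had a difference of -2.82 ± 0.75 (adjusted p = 0.0397; 0.0809 with separate spreads) and lost its call in 11 leave-outs (highest adjusted p 0.0909, without propiconazole replicate 3). Elovl3, a fatty acid elongase gene, stood at 10.65, 10.99 and 11.59 in propiconazole livers, against 12.91, 12.39 and 12.55 in conazole controls. It stood at 12.54, 12.82, 12.44, 12.13 and 12.33 in phenobarbital livers, against 12.60, 12.20, 12.66, 12.36 and 12.41 in phenobarbital controls, and the difference was -1.54 ± 0.27 (adjusted p = 0.00501). Cyp7b1, an oxysterol hydroxylase gene, had a difference of -1.15 ± 0.29 (adjusted p = 0.0345, but 0.0737 with separate spreads; lost in 10 leave-outs, up to 0.0789 without conazole control replicate 1). Nudt7, a coenzyme A hydrolase gene of peroxisomes, had one of -0.70 ± 0.12 (adjusted p = 0.00353). Hsd3b5, a steroid dehydrogenase gene, had a propiconazole change of -4.09 (adjusted p = 0.00625), but its difference of -3.92 ± 1.15 was not called (adjusted p = 0.0596). Among classical male genes with small values, the differences of Cyp2d9, Slco1a1, Cyp4a12a and Ugt2b1 were -0.09, -0.11, -0.19 and -0.16, with none called. Of 20 female-biased genes 1 was higher (against 2.44% of all genes), the P450 gene Cyp3a44, and 1 lower (against 3.13%). Neither was called with separate spreads, and the median difference of the 20 was 0.44. Propiconazole raised 7 of the 20 (against 8.08% of all genes) and lowered 1 (against 9.42%), and phenobarbital raised 3 (against 0.715%). With separate spreads each compound raised 5 and lowered none. In the growth hormone and IGF axis 2 of 21 genes were lower, Igfals (-0.87 ± 0.17, adjusted p = 0.0103), which encodes the subunit that stabilises circulating IGF1, and Ghr, the growth hormone receptor gene (-0.33 ± 0.08, adjusted p = 0.0237, but 0.0717 with separate spreads).

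**Figure D4:**
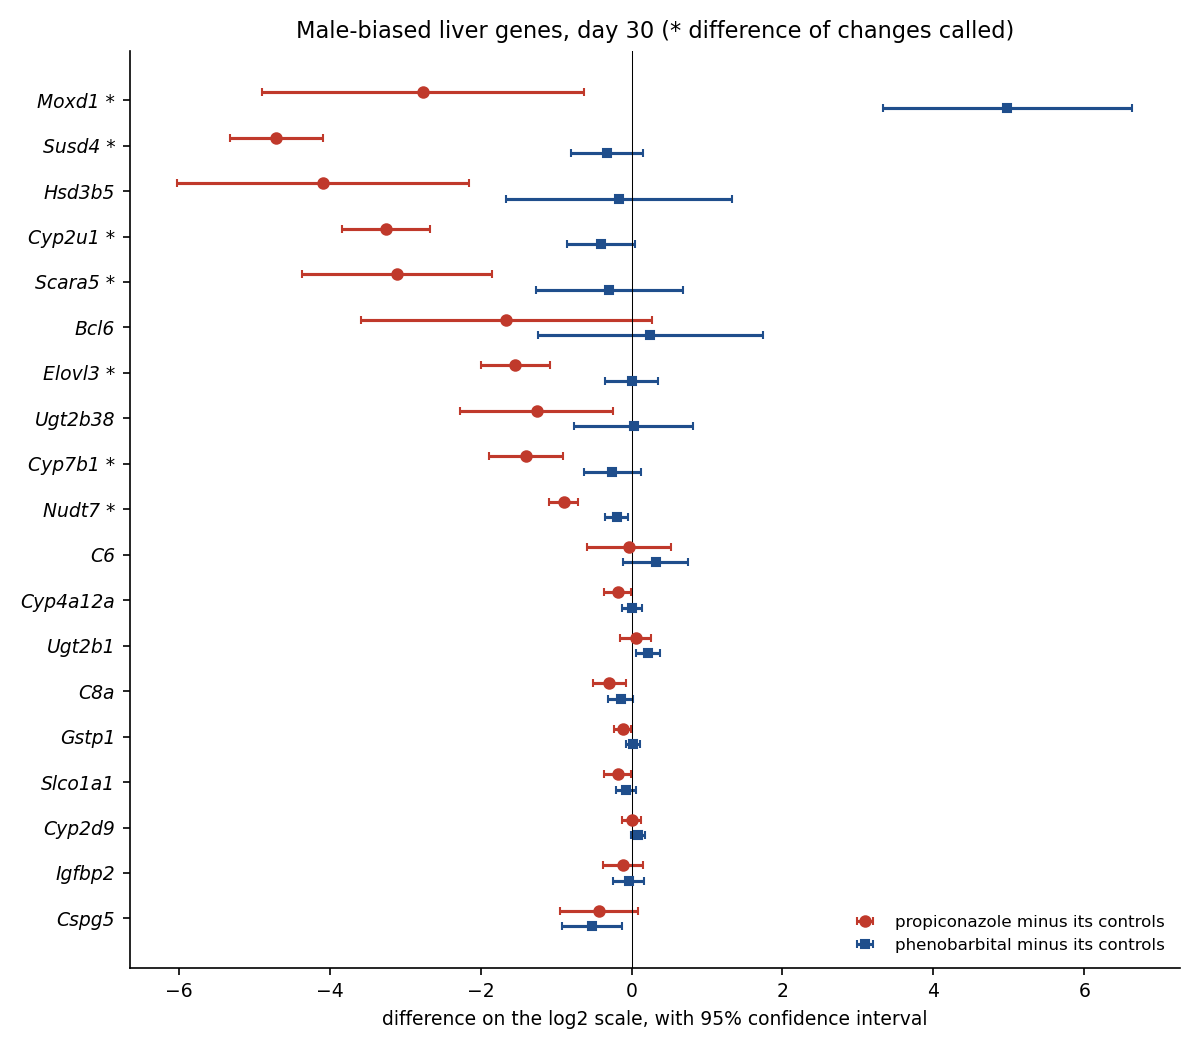
Changes of the 19 measured male-biased liver genes as log2 differences from each compound's own controls with 95% intervals (horizontal axis), propiconazole as red circles above phenobarbital as blue squares, and an asterisk where the difference was called. The 7 called genes lie to the left for propiconazole, and Moxd1 alone lies far to the right for phenobarbital.

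Among genes of drug metabolism both compounds changed P450 and glutathione S-transferase genes, and called differences between their changes are given beside the shares over all genes. Of 19 CYP2B, CYP2C and CYP3A genes, propiconazole raised 10 (against 8.08% of all genes) and lowered 1 (against 9.42%). Phenobarbital raised 8 of them (against 0.715%) and lowered 1 (against 0.349%). The difference was called for 1 of the 19, near the 5.57% over all genes, namely Cyp3a44 (1.14 ± 0.30, adjusted p = 0.038). Its adjusted p was 0.117 with separate spreads, and the call was lost in 11 leave-outs (up to 0.0868 without conazole control replicate 3). Of 20 glutathione S-transferase genes, propiconazole raised 8 (against 8.08% of all genes) and lowered 2 (against 9.42%), phenobarbital raised 5 (against 0.715%), and no difference was called. With separate spreads propiconazole raised 5 and lowered none and phenobarbital raised 7. Cyp3a11, the main CYP3A gene of mouse liver, changed by 0.07 under propiconazole and by 0.01 under phenobarbital, neither called, at levels near the top of the scale. Alas1, the first enzyme of heme synthesis, had changes of 1.36 and 1.59 under propiconazole and phenobarbital that were not called and a difference of -0.23 ± 0.66. Cyp26a1, the retinoic acid hydroxylase gene, rose 3.32-fold under propiconazole and 3.13-fold under phenobarbital, with a difference of 0.09 ± 0.60. Cyp51, the mammalian counterpart of the fungal target of propiconazole, fell 1.63-fold under propiconazole (adjusted p = 0.022) and its difference of -0.81 ± 0.25 was not called (adjusted p = 0.0733). None of the 17 mevalonate and cholesterol synthesis genes was called, at a median of -0.43. Of 18 genes that respond to NRF2, the regulator of the antioxidant defence, 3 were higher (against 2.44% of all genes) and none lower (against 3.13%), at a median of 0.40. They were Abcc4, the carbonyl reductase gene Cbr3 (2.36 ± 0.63, adjusted p = 0.0397; 0.0745 with separate spreads, and lost in 12 leave-outs, up to 0.0759 without conazole control replicate 1) and Srxn1, which repairs peroxiredoxins (0.96 ± 0.17, adjusted p = 0.00587). Of the 8 AHR related genes, Cyp1b1 and the AHR partner gene Arnt were higher and Ahrr, the AHR repressor gene, lower, but both higher calls were lost with separate spreads (adjusted p = 0.0813 and 0.0532) and Ahrr was above background on none of the 16 arrays. Cyp1b1 was not above background in any propiconazole array, and the difference of Arnt turned to -0.12 when all its probe sets were averaged. Nqo1, the quinone reductase gene, rose at least 1.72-fold under propiconazole, but its difference of 1.62 ± 0.47 was not called (adjusted p = 0.0593).

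In the pericentral, bile acid and periportal lists the called differences were mostly lower ones, and of the lower calls none was kept with separate spreads. Of 19 pericentral genes, which need Wnt signals, 4 were lower (against 3.13% of all genes) and 1 higher (against 2.44%), at a median of -0.42. The Wnt feedback genes Axin2 and Rnf43 fell under propiconazole, with differences of -1.78 ± 0.42 and -1.56 ± 0.36 (adjusted p = 0.0248 and 0.0231; 0.0587 and 0.0817 with separate spreads). Without single arrays the call of Axin2 was lost for conazole control replicates 2 and 3 and propiconazole replicate 3 (adjusted p up to 0.0563), and that of Rnf43 for conazole control replicate 1 (0.0515). For Rhbg, an ammonium transporter gene, and Lect2, which encodes a secreted hepatocyte protein and is named beyond the naming rule, the called change was a rise under phenobarbital, of 0.93 and 0.81, with differences of -1.29 ± 0.29 and -0.84 ± 0.23 (adjusted p = 0.0193 and 0.0463; 0.0904 and 0.177 with separate spreads). Slc1a4, a neutral amino acid carrier gene, rose at least 2.83-fold under propiconazole (1.85 ± 0.43, adjusted p = 0.0208). Bile acid synthesis had 3 lower genes of 14 (against 3.13% of all genes). They were Cyp7a1, its rate-limiting enzyme (-1.58 ± 0.43, adjusted p = 0.045), Cyp7b1, and the racemase gene Amacr (-0.51 ± 0.11, adjusted p = 0.0168). The urea cycle and periportal list had 3 lower genes of 15 (against 3.13%). They were Hal, which degrades histidine (-0.57 ± 0.14), Nags, which makes the activator of the cycle (-0.53 ± 0.13), and Arg1, the last enzyme of the cycle (-0.32 ± 0.07). None of the 3 bile acid or the 3 periportal genes was called with separate spreads (adjusted p 0.0619 for Arg1 to 0.167 for Cyp7a1). The calls of Cyp7a1, Hal and Nags were lost in 11, 9 and 8 leave-outs (up to 0.0981 without conazole control replicate 3, and 0.0714 and 0.0686 without conazole control replicate 2).

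Among lipid, stress and growth genes, some lists held called differences and others held none. Of 30 genes of fatty acid and triglyceride synthesis, 1 was higher (against 2.44% of all genes) and 2 lower (against 3.13%). The elongase gene Elovl6 was higher (2.01 ± 0.36, adjusted p = 0.0056). Elovl3 and Agpat2, an acyltransferase gene of lipid synthesis (-0.67 ± 0.11, adjusted p = 0.00397), were lower. Of 34 proteasome subunits, propiconazole raised 16 (against 8.08% of all genes) and phenobarbital none (against 0.715%), against 4 and 3 with separate spreads. For 2 of the 34 the difference was called, where 5.57% of all genes were called. They were Psmd8 (0.38 ± 0.05, adjusted p = 0.00148) and Psma1 (0.57 ± 0.16, adjusted p = 0.0456). For Psma1 the adjusted p was 0.0801 with separate spreads, and the call was lost in 13 leave-outs (up to 0.0974 without propiconazole replicate 3). The median difference over the 34 was 0.12. Among 26 acute phase genes 2 were higher (against 2.44% of all genes), Lcn2 and Orm3, and 1 lower (against 3.13%). The lower call was lost with separate spreads. Orm3 rose at least 11.6-fold under propiconazole and at least 4.1-fold under phenobarbital (difference 2.30 ± 0.45, adjusted p = 0.00946; 1.44 and 0.0845 with median centring). No difference was called among 39 cell cycle genes, 21 p53 targets, 28 genes of the unfolded protein and integrated stress response and 23 immediate early genes. Over all genes the share called was 5.57%. Myc rose at least 1.98-fold under propiconazole with a difference of 1.40 ± 0.51 (adjusted p = 0.126), Ccnd1, the cyclin D1 gene, had one of 0.48 ± 0.17, and Mki67, a marker of dividing cells, was above background in 1 of the 16 arrays. Por and Ugt1a9 were not analysed here.

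**Figure D5:**
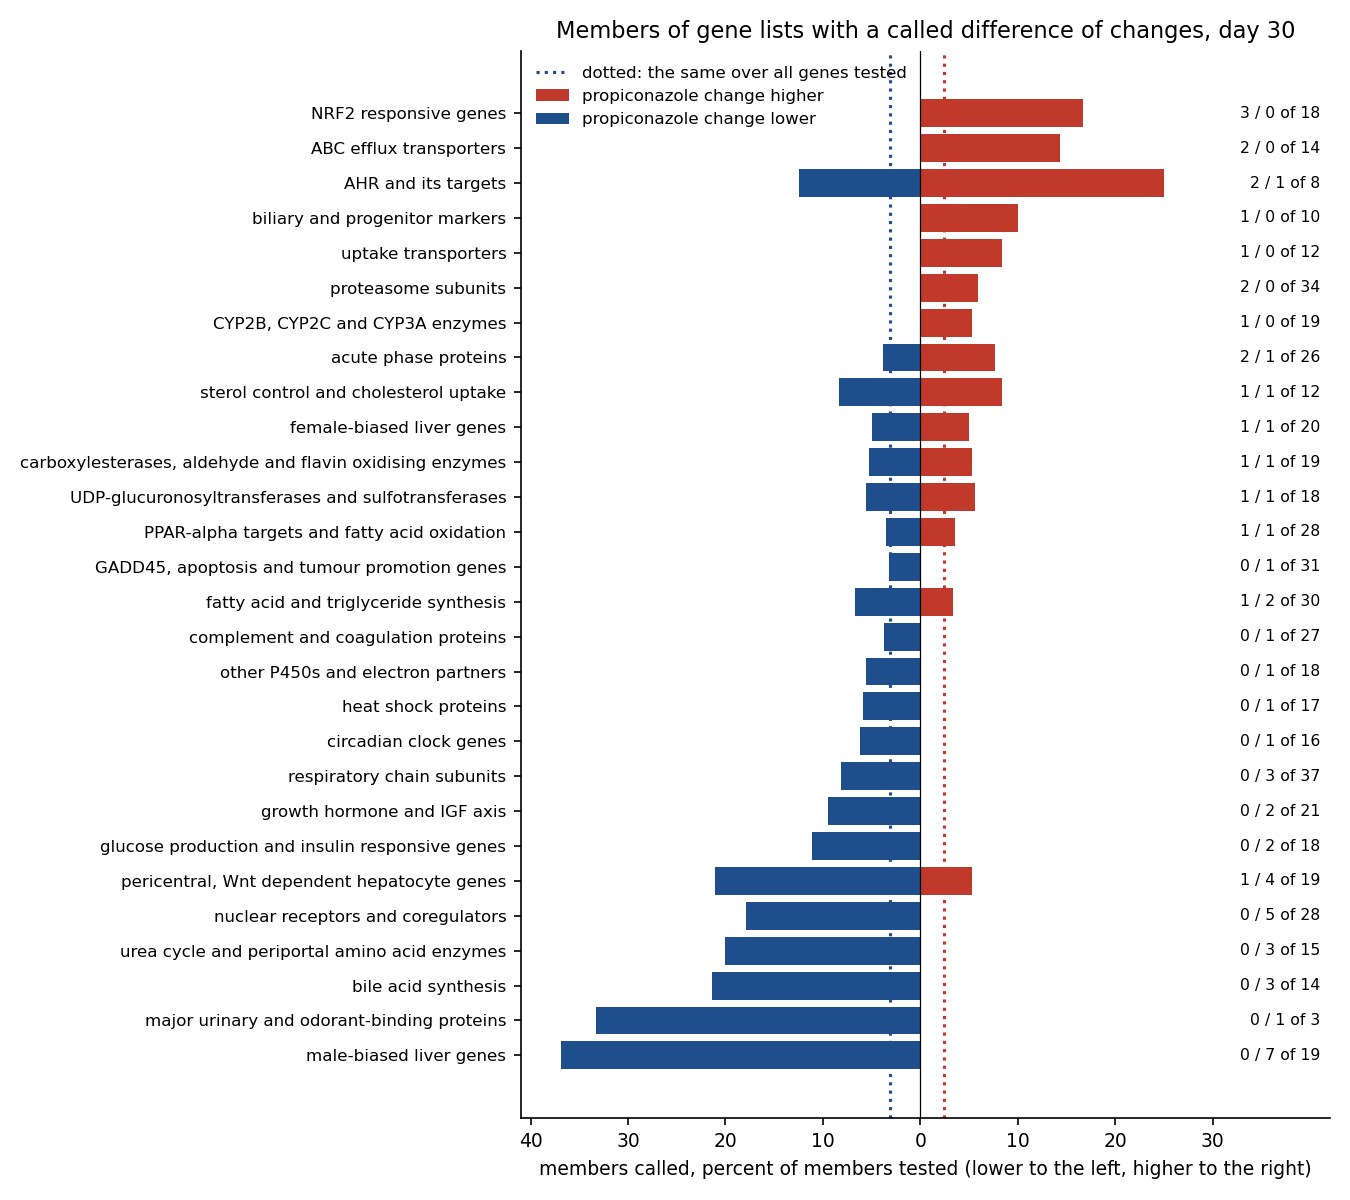
Share of the measured members of each gene list whose difference was called (horizontal axis, percent; higher under propiconazole to the right in red, lower to the left in blue), with the counts higher and lower at the right margin and dotted lines at the shares over all genes, 2.44% and 3.13%. Lists with no called member are not drawn. Male-biased genes reach furthest to the left, with 7 of 19, and the AHR list furthest to the right, with 2 of 8, neither of them called with separate spreads.

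Marker lists of other cell types had no called difference except for Sox4. The summed intensity of 17 Kupffer cell and macrophage markers was 10800 to 18100 in propiconazole livers, against 9280 to 11900 in conazole controls, and 12100 to 19100 in phenobarbital livers, against 9660 to 12800 in phenobarbital controls. That of 17 stellate cell and matrix genes was 4690 to 5180 in propiconazole livers, below the 6260 to 9140 of conazole controls, and 4650 to 6250 in phenobarbital livers, against 5700 to 6770 in phenobarbital controls. The sum of 12 lymphocyte markers was 947 to 1640 in propiconazole livers, against 618 to 970 in conazole controls, and 357 to 1310 in phenobarbital livers, against 193 to 555 in phenobarbital controls, with Cd3d, Cd3e, Cd3g, Cd4, Cd8b1 and Nkg7 above background in no group.

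At day 4, in other animals, few of these differences were called. With all 16 day 4 arrays 14 genes (0.0797%) were called, and without propiconazole replicate 2, which stands apart from its group, 137 (0.785%). In the fit of 15 arrays, 286 of the 425 higher genes with a day 4 value kept their sign and 5 were called in the same direction and 2 in the opposite. Of the 547 lower genes 406 kept their sign, 9 were called in the same direction and 1 in the opposite, and over all genes 56% had the same sign on both days. Cyp2b10 had a day 4 difference of 1.19, Cyp2c65 of -0.44, Lcn2 of 1.52, Susd4 of 0.15, Moxd1 of 0.02 and Sox4 of -0.67, none of them called. Alas1, whose changes were close on day 30, had a day 4 difference of 3.34 (adjusted p = 0.000313), from changes of 4.01 under propiconazole and 0.67 under phenobarbital.

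Triadimefon, a second triazole (spelled tridimefon in the labels, 1800 ppm, 257.1 ± 33.5 mg/kg daily), shared its 3 control arrays with propiconazole, so its changes are given only side by side and untested against it. On day 30 the propiconazole and triadimefon changes were 5.84 and 6.49 for Lcn2, 5.09 and 2.87 for Abcc4, and 2.63 and 0.09 for Sox4. They were -4.71 and -2.74 for Susd4, -3.26 and -3.01 for Cyp2u1, and -1.51 and -0.73 for Nr1i3. Lcn2, Susd4 and Cyp2u1 thus had large changes under both triazoles, whereas the change of Sox4 was near 0 under triadimefon.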

How the data were processed

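Liver RNA of single mice was hybridised to Affymetrix mouse 430_2 arrays, per the labels' protocols. The deposited values are linear intensity values per probe set, of which 21.15% are below 0; no source used here gives the software by which the authors summarised and scaled them. From them, the 38 arrays were quantile normalized together, 0 was used as the floor, and log2 values were computed with an offset of 16. Of 45101 probe sets 34958 had 1 gene symbol, 932 several and 9211 none in the platform annotation; each gene was represented by its brightest single-symbol probe set, and 17481 genes whose values were not identical on all 16 arrays were tested. R 4.3.3 and limma 3.58.1 fitted 4 group means to the 16 day 30 arrays, with an intensity trend, two-sided tests and Benjamini-Hochberg adjustment. The arrays' number limits the precision. Fold bounds set arrays of a group that is nowhere above background (5.99) to that level where they lie below it.

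The comparison, the 42 gene lists and the naming rule were chosen with earlier results of these data known. Named were the 12 largest called differences each way, genes with opposite calls, the 8 largest shared changes, up to 4 called members of each list and 24 fixed genes, in each case with a group mean above background except for the fixed genes. Rxra, Lect2, Nqo1, Hsd3b5, Ahrr, Tlr7, Prom1, Sox9, Epcam and the male genes with small values were named after their values were seen. Lists were described by counts and medians only. Alternatives were other normalizations and offsets, another treatment of probe sets, a filter on dim genes, other array sets, a spread per experiment, no trend, the replicate number as a block and leaving out each array. Promoters are RefSeq sequences of build GRCm38.p6. The fit was tested on simulated data with 200 changed genes. It called 63% of the log2 differences of 1 and 91% of those of 2. Of the genes called, 7.78% were false, above the 5% of the threshold. The simulation gave each gene 1 spread for both experiments, unlike the data.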

Additional observations from a re-analysis of the deposited data

Results flagged for a closer look

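For the 72 genes named with values, 144 groups of 5 phenobarbital or phenobarbital control arrays were searched for a single array far from the other 4, and 15 held one. The cutoff flags about 1 in 20 groups when values are normally distributed. That rate does not hold where arrays lie at the floor of 4.00, so the 15 cannot be read against it. The propiconazole and conazole control groups of 3 were too small for this search. All values below are log2 levels. Under phenobarbital, Pkmyt1 stood at 8.35 in replicate 3, with the other 4 arrays at 7.39 to 7.43. Sh3bp5l was at 4.00, the lowest level possible, in the same array against 6.14 to 6.68, and Hal at 11.01 against 11.26 to 11.33. Gga1 was at 6.62 in replicate 1, below the 7.55 or more of the others, and Cbr3 at 4.43 in replicate 5 against 4.95 to 5.06. Of the 10 values among the phenobarbital controls, 6 came from replicate 5. That array had Sh3bp5l at 6.61 and Gadd45b at 6.84, where the other 4 controls were at 4.00 for both. It also had Cbr3 at 5.19 against 4.00 to 4.31, Enho at 8.71 against 9.41 to 9.55, Arnt at 8.05 against 8.25 to 8.31, and Nags at 9.72 against 9.99 to 10.09. Control replicate 3 had Moxd1 at 4.48 against 4.00 to 4.01 and Ghr at 12.53 against 12.38 to 12.41. Control replicate 2 had Slco1a4 at 9.08 against 7.47 to 7.79, and control replicate 4 had Cyp51 at 10.44 against 9.71 to 9.92.

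The difference between the propiconazole and phenobarbital changes was also tested between days, as day 30 minus day 4 in an interaction term fitted with limma on 31 arrays (without day 4 propiconazole replicate 2), which called 1.03% of 17646 genes. Of the 72 named genes 8 were among them. Many of the 72 were named for their day 30 difference, and the term uses the same day 30 arrays. The 8 of 72 can therefore not be read against the share over all genes. The difference was higher on day 30 for Sox4 by 3.70 (adjusted p = 2.18e-07), for Ano6 by 4.73 (adjusted p = 4.44e-05) and for Abcc4 by 3.36 (adjusted p = 0.0408). It was lower on day 30 for Susd4 (-4.53, adjusted p = 0.00138), Moxd1 (-7.76, adjusted p = 0.0131), Aldh16a1 (-3.05, adjusted p = 0.0165), Zbtb42 (-3.72, adjusted p = 0.0216) and Alas1 (-3.57, adjusted p = 0.0296).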

How the results depend on the processing

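Counts of called genes depended on the processing more than directions did. Called differences numbered 974, but 278 with values as deposited, 636 with median centring, 340 with all 38 arrays in the fit and 379 with a spread per experiment, and 639 (without phenobarbital replicate 4) to 1425 (without propiconazole replicate 1) when single arrays were left out. The share of higher differences was 43.8%, but 34.2% as deposited, 26.6% with median centring and 51.5% with 38 arrays. Propiconazole calls numbered 3060, but 1481 as deposited, 1917 with 38 arrays and 1167 with a spread per experiment (2486 to 3180 in the leave-outs). Phenobarbital calls numbered 186, but 118 as deposited, 85 with 38 arrays, 121 with 37 arrays (without the day 4 array of propiconazole replicate 2) and 471 with a spread per experiment (116 to 215 in the leave-outs, the lowest without phenobarbital replicate 2). With the replicate number as a block 88 phenobarbital genes and 662 differences were called. Same-numbered arrays correlated at -0.0046 to 0.138 in the conazole and -0.0036 to 0.0728 in the phenobarbital experiment. The same-numbered array was the best partner for 2 of 3 conazole and 0 of 5 phenobarbital replicates. The labels do not say whether the numbers pair mice, and such weak correlations cannot settle it. All 974 called differences kept their sign in the other alternatives and leave-outs, except 20 with the mean of all probe sets, while the filter on dim genes tested 763 of them. Among the 88 named genes only Arnt (-0.12) and Npc2 (-0.036) reversed, both with the mean of all probe sets. Of 70 named genes with a called difference 49 stayed called in every leave-out and 21 lost the call at least once. The cause of these shifts was not tested. Levels near background limit the fold bounds.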
